A study of Homo sapiens with 4 samples.

Results

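Luminal breast epithelium, the layer of hormone-sensing and secretory cells that lines the ducts, is marked by a small circuit of genes. Of that circuit, 9 genes were described here across cell lines labelled MDA-MB-231 with and without plasmid-borne LKB1: SPDEF, AGR2, AGR3, FOXA1, GATA3, ESR1, PGR, GREB1 and CA12. They were found by gene name in a table of 34675 genes, and all 9 were in it. Each gene name matched 1 row.

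The groups were labelled as stable lines of MDA-MB-231, an established triple-negative breast carcinoma line taken from a pleural effusion. STK11 encodes LKB1, a serine/threonine kinase and tumour suppressor. The LKB1 line carried pcDNA-FLAG-LKB1, with the wildtype protein, and the vector line carried the empty pcDNA plasmid. There were 2 libraries of each line, made from total RNA of cells on plastic, and the labels do not say whether these were separate cultures. Whether each line was 1 clone or a pool is not given in the sources used here. The library titles differ between the lines in a term, fmRNA for LKB1 and mRNA for vector, which the labels do not explain, and preparation and plasmid cannot be told apart.

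In this circuit FOXA1 opens chromatin for steroid receptors, GATA3 keeps luminal cells differentiated, and ESR1 and PGR encode the oestrogen and progesterone receptors. GREB1 and CA12 are genes that oestrogen raises in receptor-positive breast cells. SPDEF is an ETS factor of secretory epithelia, and AGR2 and AGR3 encode sister members of the disulfide isomerase family that act in the endoplasmic reticulum of such cells. Triple-negative lines of the mesenchymal type are known to lack most of this programme.

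The circuit did not move as a block. SPDEF and AGR2 fell in the LKB1 line, GREB1 and CA12 rose, GATA3 did not pass the test, and ESR1, PGR, FOXA1 and AGR3 had few reads or none. Thus 2 of the 9 members were called lower and 2 higher, with 0.05 as the limit on the adjusted p given in the authors' deposited table, beside 3.24% of all genes called lower, 2.55% called higher and 5.79% called in either direction. Among the 14387 genes with at least 40 reads over the 4 libraries those shares were 6.86% and 5.77%, and 5 of the 9 members had that many. The members were chosen with results known, so their count is a description.

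The table held 1 comparison and no value per library. The header gives no direction, and a fold above 1 was taken to mean higher in the LKB1 line because STK11 had 2112 reads in the LKB1 line and 1321 in the vector line (log2 0.62, adjusted p = 0.00105 in the authors' deposited table), so STK11 does not test the labels independently. Each read total adds up the 2 libraries of a line and was worked back from the deposited folds, and the LKB1 line had 1.04 times the depth of the vector line. No spread between libraries could be measured, so each ratio of reads has an exact 95% interval that covers counting error only. As a guide to spread, the coefficient of variation between libraries was computed at which an exact negative binomial test on the totals returns the deposited p. It rests on that p and the totals and not on values per library. The implied variations and standard errors below may therefore not be each gene's own. Calling itself favours genes of small spread, and over the 1503 called protein-coding genes with at least 40 reads the median was 0.109, with 5th and 95th percentiles of 0.0958 and 0.182. These libraries may be technical replicates, so the deposited p-values measure only the spread between them.

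A check of the cells against their label touches every result below. CDKN2A, an inhibitor of the cell cycle that is deleted in MDA-MB-231 cells, had 3 reads in the LKB1 line and 32 in the vector line (adjusted p = 0.000111 in the authors' deposited table). MTAP, its neighbour and also deleted in the line, had 2 reads in the LKB1 line and 37 in the vector line; it was added after its value was seen. CDKN2B had no read in either line. In this check 1 of the 2 groups, the vector line, went against the named line. Which group this was rests on the direction taken from STK11, and it would be the LKB1 line were that direction reversed. The libraries of that group may hold other cells, in part or in whole. A difference between cells and an effect of the plasmid cannot be told apart in any fold given here, and LKB1 line and vector line are names taken from the labels. No result could be recomputed without the vector line. In bulk RNA, fewer cells of a type and less RNA per cell cannot be told apart.

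The sequences before the start sites of SPDEF, AGR2 and AGR3 are shown because 2 of these genes fell and the third, the nearest relative and neighbour of AGR2, had no read. They are the 250 bases before the RefSeq start on GRCh38.p14, all on the minus strand, at chr6:34556330-34556579, chr7:16805000-16805249 and chr7:16881984-16882233. Capitals mark matches to the motifs named in the next paragraph.
SPDEF: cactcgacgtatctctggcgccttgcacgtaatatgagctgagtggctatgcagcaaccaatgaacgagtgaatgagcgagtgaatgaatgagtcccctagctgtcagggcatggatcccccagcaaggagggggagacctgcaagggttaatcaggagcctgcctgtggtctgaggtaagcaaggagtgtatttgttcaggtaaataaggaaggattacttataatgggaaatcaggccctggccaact
AGR2: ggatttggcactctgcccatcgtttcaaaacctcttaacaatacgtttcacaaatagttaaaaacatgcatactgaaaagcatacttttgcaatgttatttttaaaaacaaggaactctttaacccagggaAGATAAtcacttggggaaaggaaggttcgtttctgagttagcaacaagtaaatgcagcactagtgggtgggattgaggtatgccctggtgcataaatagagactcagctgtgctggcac
AGR3: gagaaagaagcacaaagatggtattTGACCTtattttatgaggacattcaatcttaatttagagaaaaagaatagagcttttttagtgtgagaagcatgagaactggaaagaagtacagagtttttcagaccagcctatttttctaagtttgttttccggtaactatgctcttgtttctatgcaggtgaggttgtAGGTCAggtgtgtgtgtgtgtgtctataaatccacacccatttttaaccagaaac

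The motifs searched, on both strands, were CCGGAT for SPDEF itself, TGTTTAC for FOXA factors, AGATAA for GATA factors, AGGTCA for the core that oestrogen receptors and other nuclear receptors recognise, and TGACGTCA for the cAMP response element. No letters of a match were shared between motifs. AGR2 had a GATA match at position -119 from the start site, a motif found in 9.17% of the 35116 promoters of the table at this length. AGR3 had the receptor core at -225 and -55, a motif found in 12.1% of promoters. The SPDEF window held none of the 5, of which the SPDEF, FOXA and cAMP motifs were in 5.85%, 2.98% and 1.65% of promoters. The table held promoters for 8 of the 9 members, GREB1 being without an entry. Of the 6 entries of GATA3, 1 held the SPDEF motif, at -211, and the entries of CA12, FOXA1, ESR1 and PGR held no match. These matches describe letters and not binding.

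SPDEF (ENSG00000124664.6, chromosome 6, 34505579 to 34524110, minus strand, hg19) encodes an ETS factor that drives secretory differentiation, in mouse that of goblet cells. It had 22 reads in the LKB1 line and 816 in the vector line. The LKB1 line was low and the vector line high, with a ratio of vector to LKB1 of 38.6 and a counting interval of 25.3 to 61.9. Its log2 fold was -5.25 in the authors' deposited table (adjusted p = 3.35e-76). The implied variation between libraries was 0.112, close to the median of called genes, and gave a standard error of 0.35 on the log2 scale.

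AGR2 (ENSG00000106541.7, chromosome 7, 16831435 to 16873057, minus strand) encodes an endoplasmic reticulum protein that helps mucins fold and is also secreted by carcinomas. It had 8 reads in the LKB1 line and 137 in the vector line, a ratio of vector to LKB1 of 17.8 with an interval of 8.79 to 42.1. The fall passed the test, at a log2 fold of -4.11 in the authors' deposited table (adjusted p = 1.68e-17). Its implied variation of 0.154 was above the median of called genes and gave a standard error of 0.57. AGR3 (ENSG00000173467.4, 16899029 to 16921611), which lies 25971 bases from AGR2 on the same strand, had 0 reads in both lines, so no fold can be given.

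**Figure D1:**
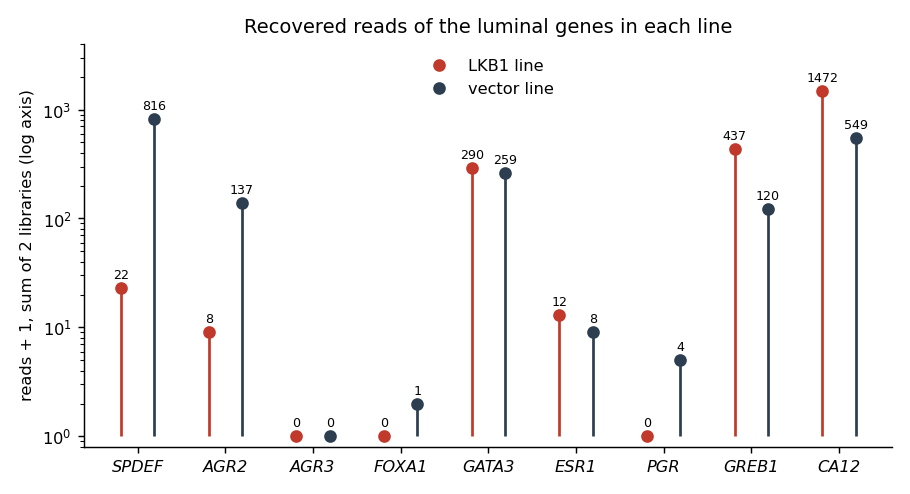
Reads of each of the 9 genes, as the sum of 2 libraries plus 1 on a log axis, in the LKB1 line (red, left) and the vector line (dark, right), with the read total printed above each point. SPDEF and AGR2 had 22 and 8 reads in the LKB1 line, against 816 and 137 in the vector line, while GREB1 and CA12 were higher in the LKB1 line.

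GATA3 and FOXA1, whose products act with the hormone receptors on chromatin, did not pass the test. GATA3 (ENSG00000107485.11, chromosome 10, 8095567 to 8117161, plus strand) had 290 reads in the LKB1 line and 259 in the vector line. The ratio of LKB1 to vector was 1.08 with an interval of 0.908 to 1.28, and the log2 fold of 0.11 did not pass (adjusted p = 1 in the authors' deposited table). Its implied variation of 0.103 gives a standard error of 0.19, small beside the log2 folds of SPDEF and AGR2. FOXA1 (ENSG00000129514.4, chromosome 14, 38059189 to 38069245, minus strand) had 0 reads in the LKB1 line and 1 in the vector line. Both are under the 3 reads that a count of 0 allows, so FOXA1 was not detectable at this depth in either line.

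The steroid receptor genes were near the limit of detection. ESR1 (ENSG00000091831.16, chromosome 6, 151977826 to 152450754, plus strand) had 12 reads in the LKB1 line and 8 in the vector line. Its ratio of 1.44 had an interval of 0.542 to 4.07, and the log2 fold of 0.52 did not pass (adjusted p = 1 in the authors' deposited table). Its 3′ end overlaps SYNE1 on the other strand, a nuclear envelope gene with 224 reads in the LKB1 line and 410 in the vector line, and whether counting used strand is not given in the sources used here. The reads of ESR1 are therefore uncertain. PGR (ENSG00000082175.10, chromosome 11, 100900355 to 101001255, minus strand) had 0 reads in the LKB1 line and 4 in the vector line. Its ratio of LKB1 to vector had a counting interval of 0 to 1.46, so no direction can be given. PGR did not pass (adjusted p = 0.835 in the authors' deposited table).

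GREB1 and CA12, which oestrogen raises in receptor-positive cells, rose in the LKB1 line. GREB1 (ENSG00000196208.9, chromosome 2, 11674242 to 11782914, plus strand), which encodes a cofactor of the oestrogen receptor, had 437 reads in the LKB1 line and 120 in the vector line. The ratio of LKB1 to vector was 3.50 with an interval of 2.86 to 4.32, and the log2 fold was 1.81 in the authors' deposited table (adjusted p = 1.11e-12). Its implied variation was 0.125 and the standard error 0.23. A signal recognition particle RNA row inside GREB1 on the same strand had 21 reads in the LKB1 line and 25 in the vector line, fewer than the gene itself in either line.

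CA12 (ENSG00000074410.9, chromosome 15, 63613577 to 63674360, minus strand) encodes a carbonic anhydrase of the cell surface that helps set pH outside the cell. It had 1472 reads in the LKB1 line and 549 in the vector line, the highest total among the members. The ratio of LKB1 to vector was 2.58 with an interval of 2.34 to 2.85, at a log2 fold of 1.37 in the authors' deposited table (adjusted p = 7.36e-13). Its implied variation of 0.108 gave a standard error of 0.17.

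**Figure D2:**
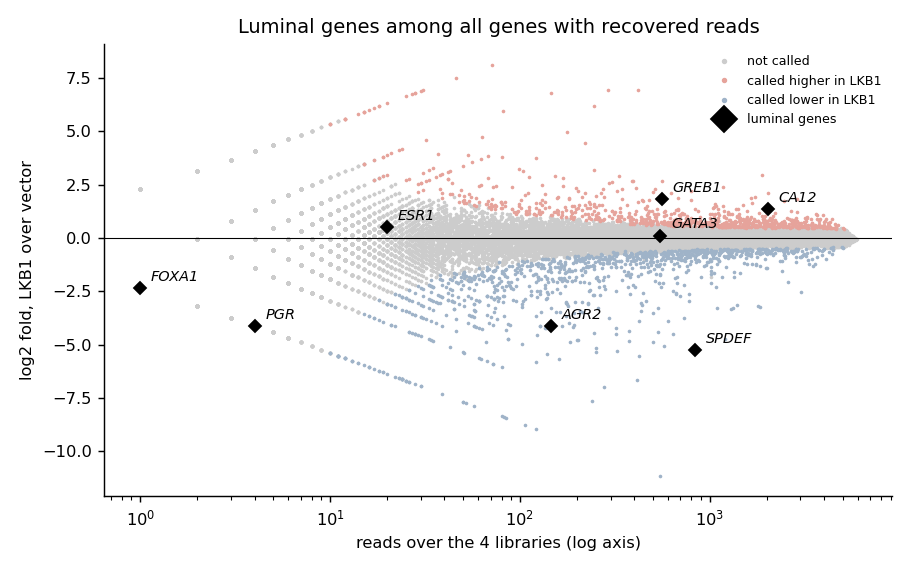
Log2 fold of LKB1 over vector from the authors' deposited table against reads over the 4 libraries on a log axis, for all genes with recovered reads (small points, coloured by call) and 8 of the luminal genes (diamonds, AGR3 having no reads). SPDEF lies at -5.25 and AGR2 at -4.11, GATA3 near the zero line, and FOXA1, PGR and ESR1 at the left where no call was made for them.

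Per kilobase of annotated exon the order of the members differed between the lines. In the LKB1 line CA12 stood first with 201 reads per kilobase, followed by GATA3 with 84.4, GREB1 with 35.4, SPDEF with 11.5 and AGR2 with 2.81. The vector line had SPDEF first with 426 reads per kilobase, then GATA3 with 75.4, CA12 with 75.1, AGR2 with 48.2 and GREB1 with 9.71. GATA3 and CA12 stood next to each other in the vector line within their counting error. ESR1 had 0.866 reads per kilobase in the LKB1 line and 0.577 in the vector line. These levels rest on exon lengths of GENCODE 29, which may not be the annotation used for counting.

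With every gene given the same assumed variation between libraries, SPDEF and AGR2 passed at 0.1, 0.2 and 0.4. At 0.4 their adjusted p from the exact negative binomial test on the totals was 4.39e-09 for SPDEF and 6.59e-05 for AGR2. GREB1 and CA12 passed at 0.1 and at 0.2 (adjusted p = 4.72e-06 for GREB1 and 0.000442 for CA12 at 0.2). They were lost at 0.4, at 0.218 for GREB1 and 0.801 for CA12.

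**Figure D3:**
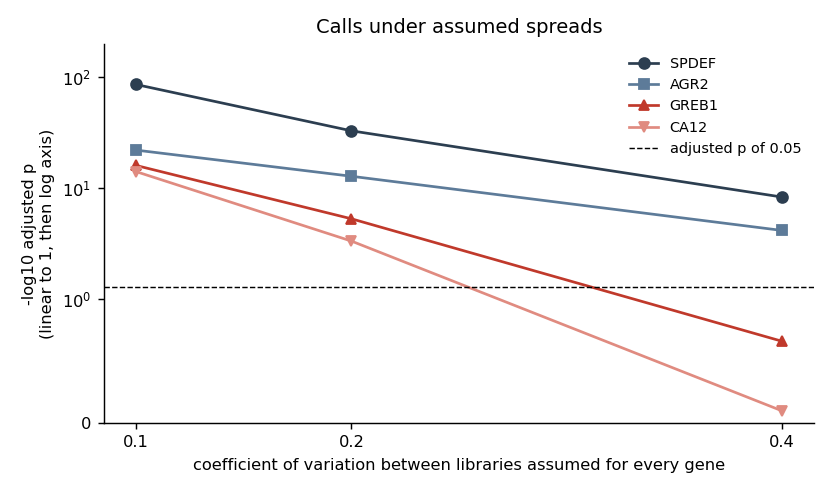
Adjusted p of the exact negative binomial test on read totals, as -log10 on an axis that is linear to 1 and logarithmic above, for the 4 called genes when a coefficient of variation of 0.1, 0.2 or 0.4 between libraries is assumed for every gene. SPDEF and AGR2 stay above the dashed line at an adjusted p of 0.05 throughout, and GREB1 and CA12 drop under it at 0.4.

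Genes around the 4 called members were examined for shifts of the whole locus. The median log2 fold of the 24 nearest genes with at least 200 reads was -0.03 around SPDEF, 0.26 around AGR2, 0.13 around GREB1 and 0.00 around CA12. The farthest of the 24 lay 1.13 megabases from SPDEF, 6.58 from AGR2, 3.78 from GREB1 and 1.63 from CA12. The lowest among those neighbours was -0.59 at SPDEF and -0.43 at AGR2, against -5.25 and -4.11 for the genes themselves in the authors' deposited table. The highest was 1.26 at GREB1 and 0.74 at CA12, below the 1.81 and 1.37 of those genes. Between 3 and 5 of the 24 were called at each of the 4 loci. The nearest protein-coding genes of SPDEF were PACSIN1, with 6 reads in the LKB1 line and 3 in the vector line, and C6orf106, at a log2 fold of 0.18 in the authors' deposited table. Next to AGR2, TSPAN13 had 27 reads in the LKB1 line and 55 in the vector line, too few to be among the 24. It did not pass (log2 -1.08, adjusted p = 0.144 in the authors' deposited table).

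**Figure D4:**
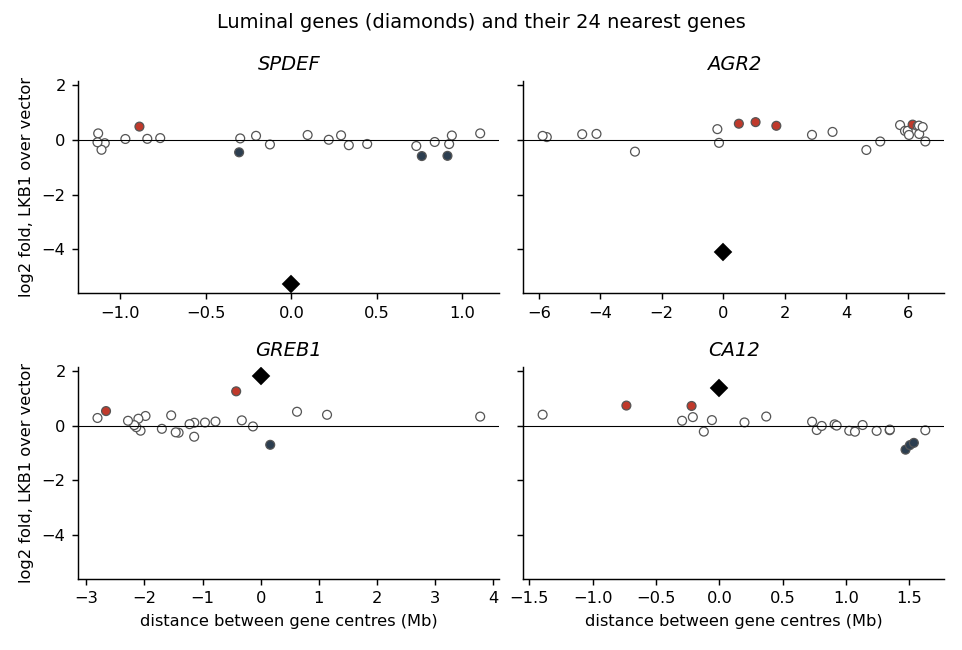
Log2 fold of LKB1 over vector from the authors' deposited table for SPDEF, AGR2, GREB1 and CA12 (diamonds) and the 24 nearest genes with at least 200 reads (circles, filled where called), against the distance between gene centres in megabases. Each diamond lies outside the range of its neighbours.

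Close relatives of the members were examined next, beside a share of 5.79% of all genes called in either direction. FOXA2, a forkhead factor of endoderm, was the 1 called gene of the 8 measured relatives. It had 28 reads in the LKB1 line and 396 in the vector line, at a log2 fold of -3.87 in the authors' deposited table (adjusted p = 6.67e-36). The other 7, among them GATA2, GATA6, GREB1L and the AGR relative TXNDC12, did not pass, and the median log2 fold of the 5 with at least 40 reads was -0.21. GATA1 was not analysed here. None of 17 other disulfide isomerase genes was called in the authors' deposited table, where 1 was higher and 1 lower at an unadjusted p under 0.05. The exact negative binomial test at a variation of 0.2 also called 0 of them. The median log2 fold of the 14 with at least 40 reads was 0.00. PDIA3, which folds glycoproteins, had 2500 reads in the LKB1 line and 2104 in the vector line, and the co-chaperone gene DNAJC10 had 1535 in the LKB1 line and 1497 in the vector line. Of the 14 other carbonic anhydrases, CA5B, a mitochondrial enzyme, rose with 597 reads in the LKB1 line and 292 in the vector line (log2 0.97, adjusted p = 2.64e-06 in the authors' deposited table), and 13 did not pass. Only 2 of these 14 had at least 40 reads, CA5B and CA13.

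Of 17 other transcription factors of luminal and secretory epithelium reported here, none was called in the authors' deposited table, where 2 were higher and 2 lower at an unadjusted p under 0.05. The exact negative binomial test called 0 of them at a variation of 0.2 and 1, as lower, at 0.1. The median log2 fold of the 10 with at least 40 reads was -0.20. EHF, an epithelial ETS factor like SPDEF, had 1753 reads in the LKB1 line and 1319 in the vector line, and the zinc finger repressor gene OVOL2 had 937 in the LKB1 line and 984 in the vector line.

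Oestrogen-responsive genes other than the members went both ways, with 4 of 31 higher, 2 lower and 25 not passing. Over all genes 2.55% were called higher and 3.24% lower. The lysosomal protease CTSD rose by 1.19 on the log2 scale in the authors' deposited table (adjusted p = 1.93e-15), its reads being too many to recover. The atypical cadherin CELSR2 rose, with 904 reads in the LKB1 line and 398 in the vector line (log2 1.13 in the authors' deposited table). TPD52L1, a relative of a tumour-associated trafficking protein, rose with 219 reads in the LKB1 line and 88 in the vector line (log2 1.26 in the authors' deposited table). NRIP1, a corepressor of nuclear receptors, fell, with 317 reads in the LKB1 line and 656 in the vector line (log2 -1.10 in the authors' deposited table). TFF1 and TFF3, trefoil peptides that mark oestrogen receptor activity, had 0 reads each in the LKB1 line, against 2 and 3 in the vector line. The median of the 21 genes with at least 40 reads was -0.07.

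Among 20 related nuclear receptors, membrane receptors and coregulators reported here, 1 rose, 1 fell and 18 did not pass. The shares of all genes were 2.55% called higher and 3.24% called lower. The coactivator NCOA1 was at a log2 fold of 0.77 and the mineralocorticoid receptor NR3C2 at -0.89 in the authors' deposited table. The median of the 18 with at least 40 reads was 0.03. When a variation of 0.2 was assumed, 0 of the 20 passed.

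Luminal surface genes, keratins, ERBB receptors and genes of the luminal subtypes rose in 5 of 28 measured members and fell in 2. The other 21 did not pass, and over all genes 2.55% were called higher and 3.24% lower. The prolactin receptor PRLR rose, with 127 reads in the LKB1 line and 32 in the vector line (log2 1.92 in the authors' deposited table). The cell surface mucin MUC1 rose with 104 reads in the LKB1 line and 31 in the vector line (log2 1.68 in the authors' deposited table). The claudins, which seal tight junctions, split. CLDN4 rose with 2149 reads in the LKB1 line and 1284 in the vector line, and CLDN7 fell with 138 in the LKB1 line and 272 in the vector line (log2 0.69 and -1.03 in the authors' deposited table). Of the 28, 2 passed when a variation of 0.2 was assumed. The median log2 fold of the 25 with at least 40 reads was -0.04. SCGB2A2 and SCGB1D2 were not analysed here.

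Over these 7 lists together, 135 genes were reported, of which 11 (8.15%) were called higher and 6 (4.44%) lower. All of these calls were among the 95 genes with at least 40 reads, as 11.6% higher and 6.32% lower, beside 5.77% and 6.86% of all genes with that many reads. Their median log2 fold was -0.0050, and that of all genes with at least 40 reads was -0.02. The lists were chosen with earlier results of these data known.

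**Figure D5:**
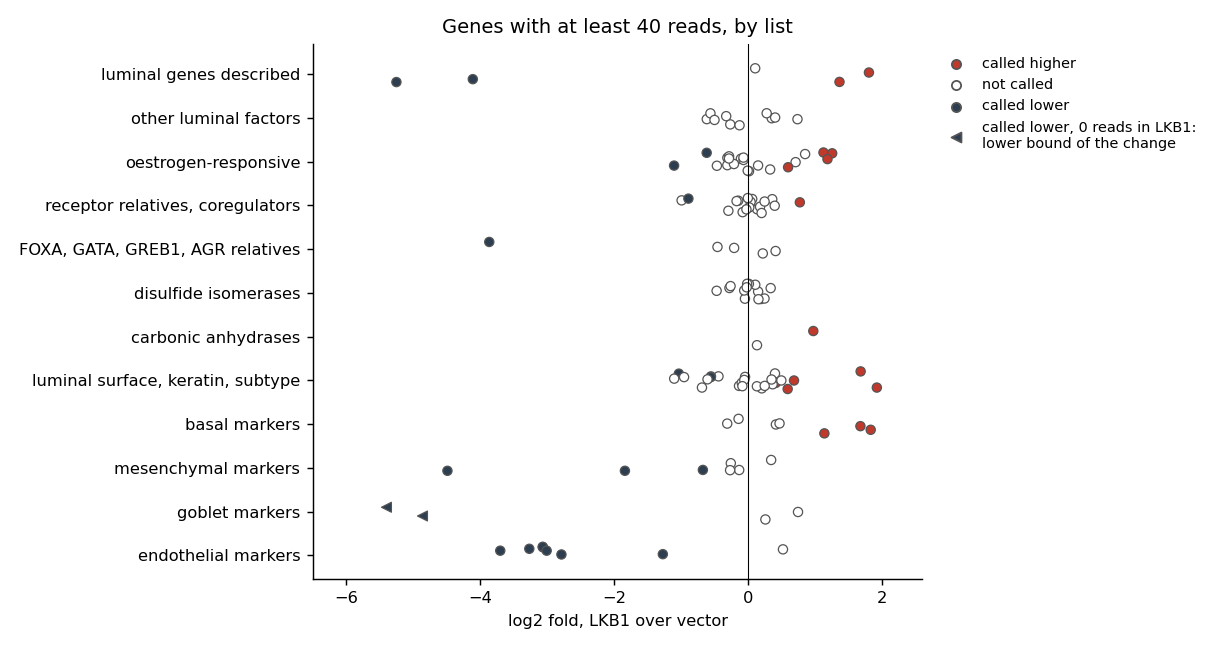
Log2 fold of LKB1 over vector from the authors' deposited table for genes with at least 40 reads, 1 row per list, filled where called. Triangles mark MUC5B and MUC5AC, with 0 reads in the LKB1 line, at the change obtained with 3 reads in place of the 0. SPDEF and AGR2 lie at -5.25 and -4.11, with FOXA2 at -3.87, and the endothelial markers have a median of -3.04.

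Markers of other cell types moved beside SPDEF and AGR2, and their part in the result was not tested. The shares over all genes were 3.24% called lower and 2.55% called higher. Of 10 measured goblet cell markers 2 fell, the secreted mucins MUC5B and MUC5AC, with 0 reads each in the LKB1 line and 122 and 84 in the vector line. With 3 reads over the group in place of the 0 they were 42.3-fold and 29.1-fold lower. Their exact counting intervals gave at least 33.9-fold and 23.2-fold. SPINK4 and FCGBP went the other way and did not pass, with 220 and 122 reads in the LKB1 line and 126 and 98 in the vector line. The list summed to 358 reads in the LKB1 line and 467 in the vector line. Its defining intestinal mucin MUC2 had 10 reads in the LKB1 line and 18 in the vector line, 4 markers were at 0 in the LKB1 line and 1 in the vector line. The median log2 fold of the 4 with at least 40 reads, MUC5B, MUC5AC, SPINK4 and FCGBP, was -2.30 with both mucins set against 3 reads. Of 8 prostate markers 1 rose, the metalloreductase STEAP2 with 144 reads in the LKB1 line and 54 in the vector line, and the defining KLK3, KLK4 and FOLH1 were at 0 in both lines. That list summed to 610 reads in the LKB1 line and 467 in the vector line. The 5 lung epithelial markers measured summed to 9 reads in the LKB1 line and 12 in the vector line, with SCGB1A1 at 0 in both, and NAPSA, the most abundant, had 6 reads in the LKB1 line and 5 in the vector line. None of the 5 was called in the authors' deposited table, nor at an unadjusted p under 0.05 or in the exact negative binomial test at 0.2.

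Endothelial markers fell in 7 of 8 measured members, and summed to 626 reads in the LKB1 line and 2296 in the vector line. Of all genes, 3.24% were called lower and 2.55% higher. Among genes with at least 40 reads the shares were 6.86% and 5.77%. The adhesion gene ESAM had 129 reads in the LKB1 line and 1197 in the vector line, and ENG, VWF and TIE1 had log2 folds of -3.01, -3.06 and -3.07 in the authors' deposited table. EGFL7 went the other way and did not pass, with 336 reads in the LKB1 line and 225 in the vector line. The median log2 fold of the 8 endothelial markers was -3.04 and none was at 0. PECAM1 and CLDN5 were not analysed here. Mesenchymal markers fell in 3 of 10 members, SPARC at -4.49, CDH2 at -1.84 and FN1 at -0.67 in the authors' deposited table, with a median of -0.27 over 7 genes. Their recovered reads summed to 2002 in the LKB1 line and 2332 in the vector line, without VIM and FN1, and TWIST1 was at 0 in the LKB1 line. Basal markers rose in 3 of 16, OXTR, TRIM29 and MYLK at log2 folds of 1.83, 1.68 and 1.14 in the authors' deposited table, and the recovered reads of the list summed to 902 in the LKB1 line and 513 in the vector line. The basal keratin KRT5 was at 0 in both lines. Fibroblast markers fell in 3 of 9, COL6A3, COL3A1 and COL1A1, with sums of 582 reads in the LKB1 line and 830 in the vector line and DCN at 0 in both. COL1A2 went the other way and did not pass, with 160 reads in the LKB1 line and 97 in the vector line. PDGFRB had 163 reads in the LKB1 line and 172 in the vector line and did not pass. Of 6 leukocyte markers CD14 rose and LCP1 fell, with sums of 1754 reads in the LKB1 line and 2361 in the vector line. Most of both sums was CD68, with 1400 reads in the LKB1 line and 1587 in the vector line, which did not pass. The pan-leukocyte gene PTPRC had 2 reads in the LKB1 line and 10 in the vector line.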

How the data were processed

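RNA was sequenced from 2 libraries of the LKB1 line and 2 of the vector line. Per the submitters' processing notes, the tools were TopHat2 2.0.6, CASAVA 1.8.2 and edgeR 2.6.0, on hg19, with no roles stated. How reads were counted, whether by strand and with which annotation, is not given in the sources used here. For 34675 genes the authors deposited, per the file headers, a linear fold ratio, a log2 fold, a p-value and its adjusted value. The adjusted p-values equal a Benjamini-Hochberg adjustment over the table, to within 1.89e-06.

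Folds were resolved into whole read totals per line with added priors of 0.254868 reads for LKB1 and 0.245132 for vector, taken from the commonest folds. Totals up to 3000 reads per line came out whole for 27299 of 28242 genes with reads (96.7%). The tolerance was 1e-09 relative to the LKB1 total, and looser for low LKB1 totals. Slightly altered constants matched 138. For genes with reads whose totals did not come out whole no total is given, and their counting error was left out of the assumed-variation tests. They were counted among the genes with at least 40 and at least 200 reads, in the lists and over all genes. Those tests doubled the smaller tail of an exact negative binomial test, adjusted over genes with reads, and the method was tested on simulated data. Intervals are Clopper-Pearson. Motifs were sought in RefSeq promoters, and exon lengths came from GENCODE 29. SciPy 1.17.1 and pandas 2.3.3 were used.

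The tests planned on counts per library could not be run. Named genes were all members, STK11, up to 4 called genes with the smallest p of each other list (or, with none called, the 2 with the most recovered reads), and the nearest protein-coding neighbours. CDKN2A and CDKN2B are the list that checks the line. MTAP, CDKN2B, TFF1, TFF3, GATA2, GATA6, GREB1L, TXNDC12, CA13, SPINK4, FCGBP, COL1A2 and PDGFRB lie outside that rule. EGFL7, CD68 and markers given at 0 or as defining lie outside it too. All of these were chosen after their values were seen. With 1 comparison, no likeness of pattern between genes could be measured. The members and lists were chosen with earlier results of these data known. From the lists, 2 genes are not reported here and are left out of the lists' counts and medians.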

Additional observations from a re-analysis of the deposited data

How the results depend on the processing

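The call of SPDEF and AGR2 as lower was kept under all 7 alternatives that gave a count. With folds and p this extreme, stricter limits on p or fold, fewer genes in the adjustment and centring could not have removed these calls. The count of members called higher fell to 0 with a variation of 0.4 assumed, and was 2 under the other 6. The 6 related genes called lower became 11 when p was adjusted over genes with at least 40 reads. They became 12, 2 and 1 with an assumed variation of 0.1, 0.2 and 0.4, 2 with centred folds at 0.2, and 3 at a fold of at least 2. The 11 called higher became 5 and 0 with a variation of 0.2 and 0.4 assumed, 6 with centred folds and 5 at a fold of at least 2. A larger assumed spread or a fold limit lowers counts by construction. No member with reads reversed its direction under the alternatives run. Most of these change only the test or the limit and keep the deposited fold, so they could not reverse it. Centring, on -0.00486, was too small a shift to reverse any member. With the median of its nearest genes taken off, GATA3 was at 0.0079, against 0.11 before. Of the single-gene values with a test 51 kept their side of the threshold, the other 2 being GREB1 and CA12 at 0.4, and a further 16 values had no test. Many of the 51 are of FOXA1, PGR, ESR1 and GATA3, which were not called. A stricter limit on p or fold could not make a call of these, so the 51 are no measure of stability. Centring was on a median of -0.00486. With 5 reads added to each line, SPDEF was at -4.98 and AGR2 at -3.51.

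Leaving out each library was planned and not run, because the table has no value per library. No paired analysis was possible because the table has no value per library. Depth limits ESR1, PGR, FOXA1 and AGR3, each with at most 20 reads over the 4 libraries.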

Other observations

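Some nearest neighbours of members that were not called were themselves called in the authors' deposited table. MYCT1, beside ESR1, fell, with 7 reads in the LKB1 line and 48 in the vector line (log2 -2.79, adjusted p = 0.000253 in the authors' deposited table). MIPOL1, beside FOXA1, fell, with 93 reads in the LKB1 line and 178 in the vector line (log2 -0.99, adjusted p = 0.0059 in the authors' deposited table). CELF2, an RNA-binding protein gene 2930097 bases from GATA3, fell, with 272 reads in the LKB1 line and 578 in the vector line (log2 -1.14 in the authors' deposited table). AHR, the dioxin receptor gene beyond AGR3, rose, with 2556 reads in the LKB1 line and 1625 in the vector line (log2 0.60, adjusted p = 0.0018 in the authors' deposited table).

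Beside PGR, TMEM133 had 69 reads in the LKB1 line and 75 in the vector line, and TRPC6 had 3 in the LKB1 line and 8 in the vector line. Beside GREB1, E2F6 had 212 reads in the LKB1 line and 208 in the vector line, and NTSR2 had 0 in both. Beside CA12, APH1B had 164 reads in the LKB1 line and 137 in the vector line, and USP3 had 714 in the LKB1 line and 633 in the vector line. None of these 6 passed the test. Of the GATA family, GATA6 had 506 reads in the LKB1 line and 562 in the vector line, and GATA2 had 229 in the LKB1 line and 189 in the vector line. Neither passed.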
